A study of Mus musculus with 6 samples.

Results

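The stress bZIP factors described here are 10 transcription factor genes of the ATF and C/EBP families and their relatives Ddit3 (which encodes CHOP) and Xbp1, chosen by name as Atf3, Atf4, Atf5, Atf6, Atf6b, Ddit3, Xbp1, Cebpb, Cebpd and Cebpg. A gene was measured where a probe set of the array was paired with its symbol and no other, which held for 9 of the 10 members, each with 1 probe set, among 16797 genes in all. For Cebpd the annotation used here listed no such probe set, and it is not described. The samples were 6 Affymetrix gene arrays of NIH3T3 cells, an immortalized mouse embryonic fibroblast line that the study calls Normal cells, 3 from cells given no drug (N) and 3 from cells given forskolin (FSK), which stimulates adenylate cyclase and thereby PKA (NF). All cells were plated in 25 mM glucose and moved after 16 h to 1 mM glucose, in which they were harvested at 72 h, with 10 μM FSK added to the NF cultures at 24 h and again at 48 h. Both groups had thus been starved of glucose, and no array of cells in high glucose was analysed here. The arrays are labelled as biological replicates of a single cell line.

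These factors share a basic region that contacts DNA and a leucine zipper through which they pair with each other. When misfolded proteins gather in the endoplasmic reticulum (ER), the kinase PERK phosphorylates eIF2, which slows translation in general but favours the translation of Atf4 mRNA, and the ATF4 protein then drives Ddit3, Atf3, Atf5 and genes of amino acid supply. In the other arms of this unfolded protein response (UPR), the protease-released part of ATF6 enters the nucleus, and the nuclease IRE1 (Ern1) splices Xbp1 mRNA into the form that encodes the active factor. Glucose shortage is a known trigger, because protein glycosylation in the ER needs sugar. The arrays measure mRNA only. A single value for Xbp1 does not separate its spliced from its unspliced mRNA, and an mRNA level does not give the amount of ATF4 protein or of cleaved ATF6.

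The promoters of the 2 factors with the largest changes, Atf3 and Ddit3, are shown because these genes moved together over the arrays. RefSeq promoter windows on GRCm38.p6 were found for 8 of the 10 members, and the 250 bases before the annotated transcription start are printed 5′ to 3′ on the strand of the gene. Capitals mark matches, on either strand, to 5 motifs chosen after the promoters had been read: the cAMP response element (CRE) TGACGTCA, its variant TGACGTAA, the C/EBP-ATF element TGATGNAA, the AP-1 site TGACTCA and the ER stress response element, which is CCAAT and CCACG with 9 bases between them. Atf3 lies on chromosome 1 (minus strand, window chr1:191183334-191183583) and Ddit3 on chromosome 10 (plus strand, window chr10:127290543-127290792).
Atf3: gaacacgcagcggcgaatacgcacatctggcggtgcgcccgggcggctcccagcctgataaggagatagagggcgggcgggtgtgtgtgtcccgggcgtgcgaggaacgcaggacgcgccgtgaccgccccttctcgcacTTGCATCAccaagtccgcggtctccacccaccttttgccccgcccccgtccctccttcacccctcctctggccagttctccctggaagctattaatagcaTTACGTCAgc
Ddit3: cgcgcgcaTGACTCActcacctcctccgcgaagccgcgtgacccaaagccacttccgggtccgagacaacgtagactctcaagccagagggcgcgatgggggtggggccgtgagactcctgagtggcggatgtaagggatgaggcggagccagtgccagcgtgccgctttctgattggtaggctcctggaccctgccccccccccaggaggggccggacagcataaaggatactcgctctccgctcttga

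Counted back from the transcription start, with -1 as the base before it, the Atf3 promoter held the C/EBP-ATF element on the minus strand at -110 to -103 and the CRE variant on the minus strand at -10 to -3. The Ddit3 promoter held the AP-1 site at -242 to -236. Of 32851 promoter windows of this length, 3.45% held the C/EBP-ATF element, 0.447% the CRE variant and 4.46% the AP-1 site. The full CRE (1.55% of windows) and the ER stress response element (0.113%) matched none of the 9 windows of the members. None of the motifs overlapped another match in these promoters. The windows are short, and a match to letters is not evidence of a bound site.

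Every measured factor was expressed at a moderate or high level, with a mean log2 value of 6.26 to 9.37 against a median of 3.70 for all probe sets tested. The fibroblast label was borne out by Col1a1, Col1a2, Vim and Fn1 and 5 other fibroblast markers, with mean log2 values between 5.16 and 12.55. Of 12 markers of epithelial cells, leukocytes and endothelial cells, 11 were below the median of all probe sets, and Krt8 lay just above it at 3.79. Array medians ran from 3.84 to 3.93. Some arrays stood apart: the values of N replicate 1 had a smaller spread (SD of 2.42 against 2.58 to 2.62 on the log2 scale), and NF replicate 2 lay nearer to N than the other NF arrays in many genes. In a bulk sample, less mRNA per cell and fewer cells that make it cannot be told apart.

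Of the 9 measured factors, 3 were lower in FSK-treated cells and none was higher. Atf3 fell 9.78-fold, Ddit3 7.11-fold and Atf5 1.65-fold (limma, adjusted p = 0.0113, 0.0384 and 0.0470, n = 3 per group). The same test called 121 of all 16797 genes lower in NF, which is 0.720% of them, and 307 (1.83%) higher, or 2.55% in either direction. A further 3 factors, Atf4, Atf6 and Xbp1, had every NF array below every N array but did not pass the test, and Atf6b, Cebpb and Cebpg overlapped between groups. In all, 6 of the 9 factors had no overlap with NF lower, against 9.70% of all genes. These 6 also had an unadjusted p below 0.05, against 5.49% of all genes that were lower with such a p. The factors and the lists below were chosen with earlier results of these data known. The shares set beside them are therefore a description and not a test. The median log2 change of the 9 factors was -0.72, and that of all genes -0.03.

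**Figure D1:**
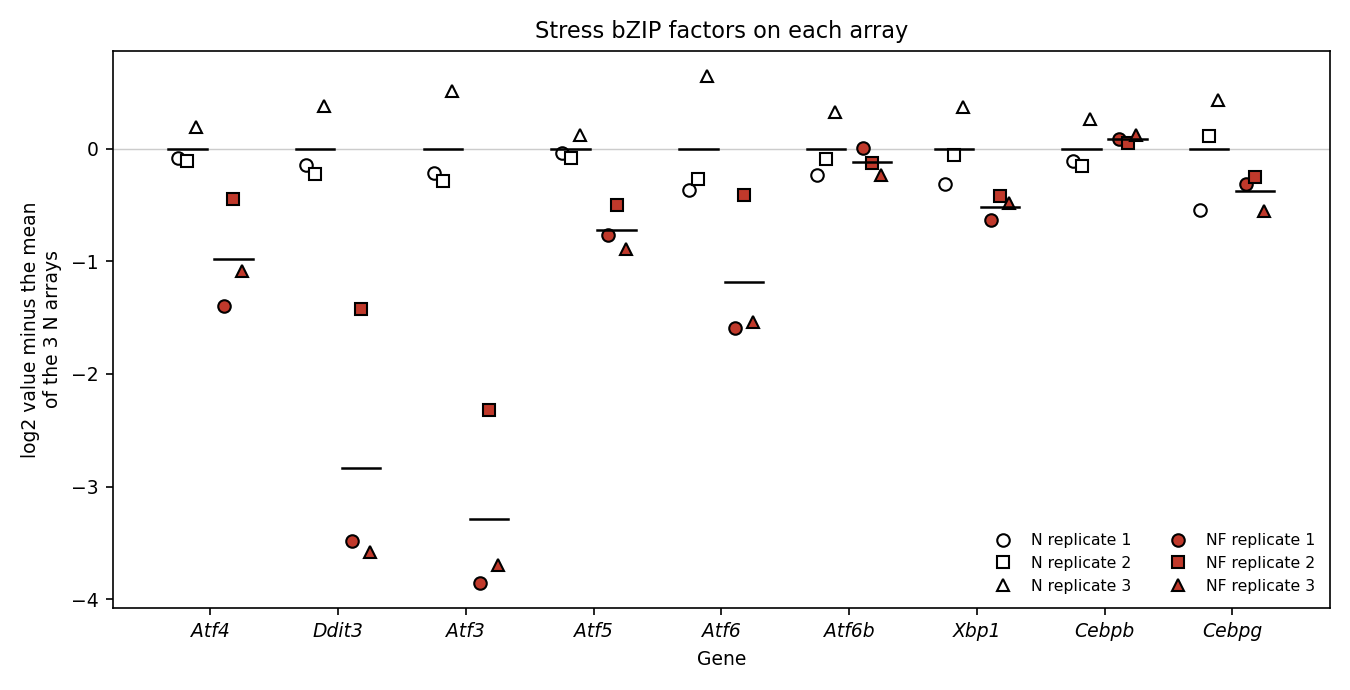
Log2 value of each of the 9 measured stress bZIP factors minus its mean over the 3 N arrays (vertical axis, log2) on every array, with N open, NF filled, the marker shape giving the replicate number and a line at each group mean. Atf3 and Ddit3 lie far below the N arrays in NF replicates 1 and 3, NF replicate 2 lies between, and Cebpb and Atf6b overlap between groups.

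The calls depended on which arrays entered the fit, and the share of all genes called lower moved with them. With N replicates 1, 2 and 3 left out in turn this share was 2.56%, 0.458% and 0.202%, and with NF replicate 2 left out 0.536%. No gene was called lower on leaving out NF replicate 1 or NF replicate 3, by limma (541 and 606 genes were lower with an unadjusted p below 0.05). In either direction, 5.49%, 2.08%, 0.828%, 0.00595%, 1.43% and 0.0119% of genes were called without N replicates 1, 2 and 3 and NF replicates 1, 2 and 3 in turn. With the replicate number as a block 0.476% were called, after a further quantile normalization 5.12%, and by the equal-variance test that the study's statistics section names 0.00595%. The number of factors called was 5, 1 and 1 with N replicates 1, 2 and 3 left out, 3 with NF replicate 2 left out and 0 with NF replicate 1 or 3 left out (4 lower with an unadjusted p below 0.05 from limma in both cases).

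Atf4 encodes the factor that links eIF2 phosphorylation to transcription. Its log2 value was 9.27, 9.24 and 9.55 on the N arrays and 7.96, 8.91 and 8.27 on the NF arrays. All NF arrays were lower, with NF replicate 2 nearest to N. The log2 change was -0.98 (standard error 0.24, 95% confidence interval -1.52 to -0.43), equal to 1.97-fold, and it did not pass the test over all genes (limma, adjusted p = 0.0869). It passed without NF replicate 2 (log2 change -1.24, adjusted p = 0.0284) and after a further quantile normalization (adjusted p = 0.0383). After quantile normalization 2.17% of all genes were called lower.

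Ddit3 encodes CHOP, a C/EBP relative that pairs with other C/EBP factors and promotes cell death in lasting ER stress. On the N arrays its log2 value was 10.59, 10.50 and 11.11, and on the NF arrays 7.25, 9.31 and 7.15. The groups did not overlap, and NF replicate 2 stood between N and the other NF arrays. The log2 change was -2.83 (standard error 0.53, 95% confidence interval -4.05 to -1.61), the 5th lowest of all genes. With NF replicate 2 left out it was -3.53 (adjusted p = 0.00547). The call was lost without N replicate 2 (adjusted p = 0.0826), N replicate 3 (0.106), NF replicate 1 (0.196) or NF replicate 3 (0.204).

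Atf3 encodes a repressor and activator that ATF4 and many other stress signals induce. Its log2 value was 9.25, 9.17 and 9.97 on the N arrays and 5.61, 7.14 and 5.76 on the NF arrays. Every NF array was lower by more than the spread among the N arrays. The log2 change was -3.29 (standard error 0.40, 95% confidence interval -4.22 to -2.36). The call was lost without NF replicate 1 (adjusted p = 0.0796) or NF replicate 3 (0.105). Beside these it kept the call on leaving out any of the N arrays or NF replicate 2 (adjusted p from 0.00351 to 0.0417).

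Atf5 encodes a relative of ATF4 that acts in the mitochondrial stress response. It had log2 values of 7.98, 7.94 and 8.14 in N and 7.26, 7.52 and 7.13 in NF. The N arrays lay close together and above all NF arrays. Its log2 change of -0.72 (standard error 0.14, 95% confidence interval -1.05 to -0.39) was smaller than that of Atf4, but the spread within groups was smaller too. The adjusted p of 0.0470 from limma was near the threshold, and the call was lost with trend and robust estimation of the variance (adjusted p = 0.0913, with 0.762% of all genes called lower) and on leaving out N replicate 2 (0.0869), N replicate 3 (0.130), NF replicate 1 (0.244), NF replicate 2 (0.0618) or NF replicate 3 (0.238).

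**Figure D2:**
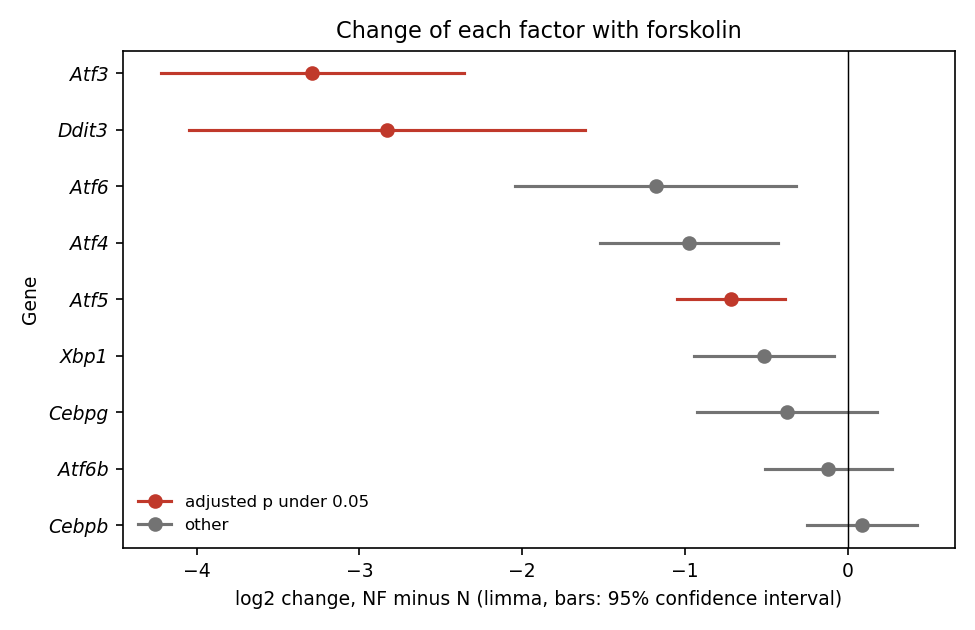
Log2 change of NF against N (horizontal axis) for each of the 9 measured stress bZIP factors from limma, with bars for the 95% confidence interval and red for an adjusted p under 0.05. Atf3, Ddit3 and Atf5 passed the test, and the intervals of Atf4, Atf6 and Xbp1 lie below 0 without an adjusted p under the threshold.

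Atf6 encodes the membrane-bound ER sensor that is cut in the Golgi to free its bZIP part. The log2 values were 8.55, 8.65 and 9.56 in N and 7.33, 8.51 and 7.38 in NF. NF replicate 2 was only just below N replicate 1, and N replicate 3 stood above the other N arrays. The log2 change was -1.18 (standard error 0.37, 95% confidence interval -2.04 to -0.32, limma adjusted p = 0.194), -1.57 without NF replicate 2 and -0.86 without N replicate 3. Its relative Atf6b, made and cut in the same way, had a log2 change of -0.12 (95% confidence interval -0.51 to 0.27). Its values of 7.31, 7.46 and 7.87 in N and 7.55, 7.42 and 7.31 in NF overlapped.

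Xbp1 encodes the factor of the IRE1 arm. The log2 values were 9.31, 9.58 and 10.00 in N and 8.996, 9.21 and 9.15 in NF. The groups lay apart, although NF replicate 2 was only just below N replicate 1. Its log2 change was -0.51 (standard error 0.19, 95% confidence interval -0.94 to -0.08), or 1.43-fold lower, which did not pass (limma, adjusted p = 0.266). Without N replicate 1 the change was -0.67 and passed (adjusted p = 0.0422), and without N replicate 3 it was -0.33 (adjusted p = 0.384).

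The C/EBP factors showed the smallest changes beside Atf6b. Cebpb, which encodes a factor of inflammation and fat cell formation, had log2 values of 6.11, 6.06 and 6.48 in N and 6.30, 6.27 and 6.33 in NF. The NF arrays lay inside the range of N, with a log2 change of 0.09 (95% confidence interval -0.25 to 0.42). Cebpg, which encodes a partner of other C/EBP factors and of ATF4, had values of 6.25, 6.91 and 7.23 in N and 6.48, 6.54 and 6.25 in NF. N replicate 1 was as low as the NF arrays, and the log2 change was -0.37 (95% confidence interval -0.93 to 0.18). Without N replicate 1 it was -0.64, with an adjusted p of 0.0448 from limma, and without N replicate 3 it was -0.16 (adjusted p = 0.785). The intervals of Cebpb, Cebpg and Atf6b do not reach a fall to 0.5 of the N level, and a p over the threshold by itself does not show that a gene was unaffected.

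Whether relatives changed by unequal amounts was tested for 4 pairs through their log2 difference within each array, by an exact two-sided permutation test over the 6 arrays, with adjustment over the pairs. With 3 arrays against 3 the smallest possible p is 0.1. The log2 change of Atf6 minus that of Atf6b was -1.06, and the groups did not overlap in it (exact p = 0.1, adjusted p = 0.2). For Atf3 minus Ddit3 it was -0.46, again without overlap (exact p = 0.1, adjusted p = 0.2). It was -0.26 for Atf4 minus Atf5 and 0.46 for Cebpb minus Cebpg, with overlap (exact p = 0.3 and adjusted p = 0.3 for each). None of these differences could pass a threshold of 0.05 in this design.

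Over the 6 arrays the log2 values of Atf3, Atf4, Atf5 and Ddit3 followed each other closely. Pearson's r ran from 0.948 (Atf4 and Atf5) to 0.993 (Atf3 and Atf5), as a description over 6 arrays that share the difference between groups. Atf6 had an r of 0.944 with Ddit3, and Cebpb one of -0.211. By this measure the genes most like Ddit3, among probe sets of moderate or high value and members aside, were Acot2, a thioesterase of fatty acyl-CoA (r = 0.997), Trib3, a pseudokinase (r = 0.997), and Ppp1r8, a regulator of protein phosphatase 1 (r = 0.997). Trib3 had log2 values of 8.45, 8.40 and 8.90 in N and 4.94, 7.15 and 4.47 in NF, so it too had NF replicate 2 between N and the other NF arrays. The genes most like Atf4 were Cyb5r1, a cytochrome b5 reductase, Phgdh, the first enzyme of serine synthesis, and Ier2, an immediate early gene (r = 0.994 for each). An r of 0.9 or more was reached by 281 genes with Ddit3 and by 252 with Atf4, among at most 8307 genes with a probe set in this range.

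NF replicate 2 had lost less of these mRNAs than the other treated arrays. As a share of the mean fall in NF replicates 1 and 3, its fall was 26.0% for Atf6, 36.0% for Atf4, 40.3% for Ddit3, 61.0% for Atf5, 61.5% for Atf3 and 75.8% for Xbp1. For the 90 genes that were called lower without this array, the median share was 54.0% (quartiles 39.6% and 72.2%), and for the 151 called higher it was 79.0%. Atf6 and Atf4 lay below the lower quartile of the genes that fell, Xbp1 above the upper quartile and the other factors between them. These genes were chosen by their values in NF replicates 1 and 3, so the array left out tends to show a smaller change by that choice alone. Atf3, Atf4 and Ddit3 are among them, whereas Atf5, Atf6 and Xbp1 were not called in that fit. The quartiles are therefore a description and not a test of this array. Among the N arrays, replicate 3 was the highest for each of the 9 factors. The part of these arrays' differences in the results was not tested beyond leaving them out. With both N replicate 1 and NF replicate 2 left out, which was decided with the data in view, 5 of the 9 factors fell (Atf3, Atf4, Atf5, Atf6 and Ddit3), where 2.96% of all genes did.

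Among the genes that ATF4 and CHOP are known to activate, 11 of 37 measured fell, none rose and 26 did not pass, with a median log2 change of -1.17. All NF arrays lay below all N arrays in 26 of the 37. Over all genes, 0.720% were called lower and 9.70% had all NF arrays below all N arrays. Nupr1, a small chromatin protein of the stress response, had a log2 change of -1.37 (limma, adjusted p = 0.00925), Gpt2, which makes alanine in mitochondria, one of -2.41 (0.0126), Cth, which makes cysteine from cystathionine, one of -2.96 (0.0150) and Slc7a5, which carries large neutral amino acids into cells, one of -2.15 (0.0287). The others that fell were Eprs, Nars and Gars, which charge tRNAs, the cationic amino acid transporter Slc7a1, the asparagine synthetase Asns, the glutathione-degrading Chac1 and Trib3. Not every target was lower. Slc38a2, a transporter of small neutral amino acids, had a log2 change of -0.01 and Ddit4, an inhibitor of mTORC1, one of 0.05, and Bcl2l11, which encodes the death-promoting BIM, one of 0.67 (adjusted p = 0.0767). The count of targets that fell was 22, 5 and 3 without N replicates 1, 2 and 3, 19 without NF replicate 2, and 0 without NF replicate 1 or 3 (24 with a lower value and an unadjusted p below 0.05 from limma in both cases). Of all genes, 2.56%, 0.458% and 0.202% were called lower without N replicates 1, 2 and 3, and 0.536% without NF replicate 2.

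Genes that ATF6 and XBP1 are known to activate had smaller changes. Of 34 measured, 4 fell and 30 did not pass, with a median log2 change of -0.35. The mean was lower in NF for 28. All NF arrays lay below all N arrays in 10, and 14 were lower with an unadjusted p below 0.05 from limma. Over all genes these last 2 shares were 9.70% and 5.49%, and 0.720% were called lower. Herpud1, which serves the degradation of ER proteins and is also an ATF4 target, had a log2 change of -2.01 (limma, adjusted p = 0.0132) and Sdf2l1, an ER protein of the chaperone complex, one of -1.90 (0.0264). Dnajc3, which inhibits eIF2 kinases and aids folding, had one of -0.70 (0.0356) and Selenos, a selenoprotein of ER-associated degradation, one of -0.80 (0.0395). Both lost the call without NF replicate 2 (adjusted p = 0.107 for Dnajc3 and 0.0802 for Selenos). Hspa5, the main ER chaperone, had a log2 change of -1.35 and did not pass (adjusted p = 0.0862). The log2 changes of Calr, Canx and P4hb, which fold proteins in the ER, were -0.36, -0.12 and 0.28. Other genes of ER folding, Dnajb9, Pdia4 and Hsp90b1, had log2 changes of -1.25, -0.78 and -0.63. They did not pass either (limma, adjusted p = 0.271, 0.190 and 0.217). The difference between these targets and those of ATF4 was not tested. The count was 2 and 1 with N replicates 2 and 3 left out in turn, and 0 with NF replicate 1 or 3 left out (8 with a lower value and an unadjusted p below 0.05 from limma in both cases). Without N replicates 2 and 3, 0.458% and 0.202% of all genes were called lower.

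**Figure D3:**
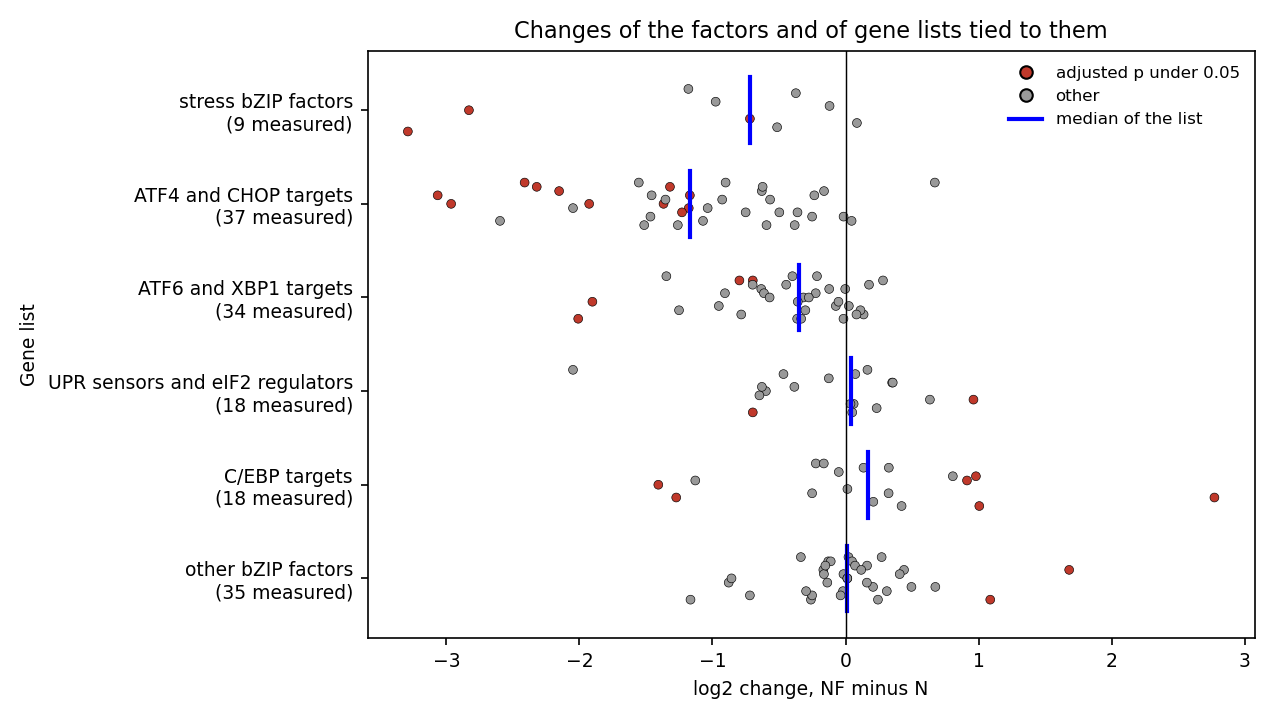
Log2 change of NF against N (horizontal axis) for every measured gene of the stress bZIP factors and of 5 lists tied to them, with one point per gene, red for an adjusted p under 0.05 and a blue bar at the median of the list. The factors and the ATF4 and CHOP targets have medians of -0.72 and -1.17, whereas the medians of the UPR sensors, the C/EBP targets and the other bZIP factors are 0.04, 0.17 and 0.01. Only 9 of 18 C/EBP targets and 22 of 35 other bZIP factors have a mean log2 value above the median of all probe sets tested.

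The sensors and eIF2 regulators upstream of the factors moved both ways. Of 18 measured, 1 rose, 1 fell and 16 did not pass (median log2 change 0.04). By the same test 1.83% of all genes rose and 0.720% fell. The mean was lower in NF for 8 of the 18. With an unadjusted p below 0.05 from limma, 6 were lower and 2 higher, against 922 and 1400 of all 16797 genes. All NF arrays lay below all N arrays in 5 and above them in 2, against 1629 and 1768 of all genes. Eif2ak2, which encodes the RNA-activated eIF2 kinase PKR, rose by 0.96 on the log2 scale (limma, adjusted p = 0.0160), from a mean of 3.67 in N, which is below the median of all tested probe sets (3.70), so that its size is uncertain. Dnajc3, already named, was the gene that fell. Eif2ak3, the ER kinase PERK, had a log2 change of 0.16 (95% confidence interval -0.26 to 0.59) and Ern1 (IRE1) one of -0.65 (95% confidence interval -1.28 to -0.01, adjusted p = 0.363). Ppp1r15a, the stress-induced phosphatase subunit that acts on eIF2 and is itself an ATF4 target in the list above, had a log2 change of -2.05 (adjusted p = 0.0829), and Ppp1cc, a catalytic subunit of that phosphatase, one of 0.63 (adjusted p = 0.0583). Without N replicate 1 both passed (adjusted p = 0.0495 for Ppp1r15a and 0.0447 for Ppp1cc). Without NF replicate 2 the log2 change of Ppp1r15a was -2.65 and passed (adjusted p = 0.0174), whereas Eif2ak2 (0.0564) and Dnajc3 (0.107) lost their calls. The count of 2 became 5 without N replicate 1, 1 without N replicate 2 or NF replicate 2, and 0 on leaving out N replicate 3 or NF replicate 1 or 3 (by limma, 4 to 5 with a lower value and an unadjusted p below 0.05).

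Known targets of C/EBP factors moved both ways, with 4 of 18 higher, 2 lower and 12 not passing (median log2 change 0.17). Of all genes, 1.83% were called higher and 0.720% lower by this test. Only 9 of the 18 had a mean log2 value above the median of all probe sets tested. With dimmer probe sets left out, the median log2 change of these 9 was 0.81, again with 4 called higher and 2 lower. In that setting 359 of all 8307 genes were called higher and 148 lower. The median of 0.17 thus rests in large part on dim probe sets. Those that rose are secreted: the chemokines Cxcl5 (log2 change 2.77, limma adjusted p = 0.00843), Ccl2 (1.01, 0.0231) and Cxcl1 (0.91, 0.0322), and Lcn2, which binds bacterial iron carriers (0.98, 0.0460). Gadd45a, a sensor of DNA damage and other stress, fell by 1.41 on the log2 scale (adjusted p = 0.0290), and Ptx3, a secreted pattern recognition protein, by 1.27 (0.0493). Cebpb, the C/EBP factor measured here that is best known at these genes, had the interval of -0.25 to 0.42 given above. The count of 6 became 3 and 2 with N replicates 2 and 3 left out in turn, and 0 with NF replicate 1 or 3 left out (by limma, 2 lower in both cases and 5 and 6 higher with an unadjusted p below 0.05). Without N replicates 2 and 3, 2.08% and 0.828% of all genes were called.

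Among the 35 other bZIP factors measured, 2 rose, none fell and 33 did not pass, with a median log2 change of 0.01. Only 22 of the 35 had a mean log2 value above the median of all probe sets tested. With dimmer probe sets left out, the median log2 change of these 22 was -0.06, with 2 called higher and 1 lower, against 359 and 148 of 8307 genes. Of all genes, 1.83% rose and 0.720% fell by this test. Hlf, a PAR-domain factor, rose by 1.68 on the log2 scale (limma, adjusted p = 0.00843) and Fosl2, a partner of JUN proteins, by 1.09 (0.0396). Mafg, a small MAF protein that pairs with NRF2, had a log2 change of -0.86 (adjusted p = 0.0524) and Nfe2l1, which controls proteasome genes, one of -0.72 (adjusted p = 0.149). Without N replicate 1 both passed (adjusted p = 0.0371 for Mafg and 0.0153 for Nfe2l1), and without NF replicate 2 Fosl2 lost its call (0.116). Nfe2l2 (NRF2 itself), Creb1 and Atf2 had log2 changes of -0.15, -0.14 and -0.17. None of the 35 fell by limma, although 4 were lower with an unadjusted p below 0.05, against 5.49% of all genes. With N replicate 1 left out, 5 of the 35 were called, and 3 of these were lower. In that fit 5.49% of all genes were called, and 2.56% were called lower. On leaving out NF replicate 1 or 3, 0 were called (by limma, 3 and 2 lower with an unadjusted p below 0.05), and 1 was called on leaving out N replicate 2, N replicate 3 or NF replicate 2.

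**Figure D4:**
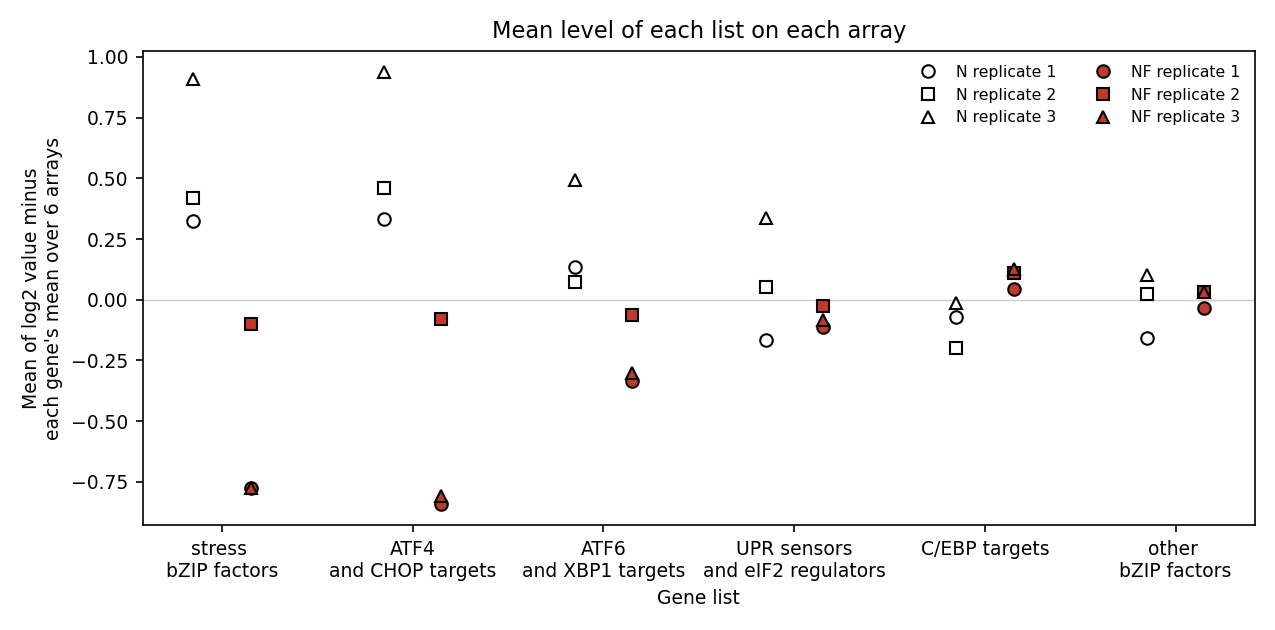
Mean over the measured genes of a list of the log2 value minus each gene's mean over the 6 arrays (vertical axis), with one point per array, N open and NF filled, and the marker shape giving the replicate number. The means of the stress bZIP factors and of the ATF4 and CHOP targets are alike over the arrays, with N replicate 3 highest (0.91 and 0.94) and NF replicate 2 (-0.10 and -0.08) between the N arrays and the other NF arrays.

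The mean levels of the stress factors and of the ATF4 and CHOP targets were alike over the arrays, with NF replicates 1 and 3 close together at the bottom. Relative to each gene's mean, the factors averaged 0.32, 0.42 and 0.91 on the N arrays and -0.78, -0.10 and -0.78 on the NF arrays. The targets averaged 0.33, 0.46 and 0.94 in N and -0.84, -0.08 and -0.81 in NF. Both means therefore separated NF replicate 2 from the other NF arrays by a similar step. Atf3 and Ddit3, with log2 changes of -3.29 and -2.83, weigh most in the mean of the 9 factors, and not every factor followed it. Atf6b, Cebpb and Cebpg had an r of 0.376, -0.211 and 0.611 with Ddit3, against 0.809 (Xbp1) to 0.984 (Atf3) for the other factors. The mean over the 35 other bZIP factors stayed between -0.16 and 0.10 on all arrays. This does not show that each of them was steady, because opposite changes cancel in a mean. The log2 change was 1.68 for Hlf and 1.09 for Fosl2, but -1.17 for Nfil3 and -0.86 for Mafg, and 17 of the 35 were lower in NF. Only 22 of the 35 had a mean log2 value above the median of all probe sets tested.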

How the data were processed

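Total RNA was hybridised to 6 Affymetrix arrays. The authors deposited RMA expression values on a log2 scale (R/Bioconductor package oligo, annotation from ENSEMBL); versions, and which arrays were normalized together, are not given in the sources used here, and the authors kept only probe sets with an Entrez gene. Of 22035 probe sets, the 18197 paired with 1 symbol were tested, 1260 had several symbols and 2578 were not listed. The 6 columns were matched to samples by accession, and 0 were unused.

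NF was compared with N by limma 3.58.1 in R 4.3.3 (lmFit, eBayes, prior degrees of freedom 4.00), as in the study's methods, with Benjamini-Hochberg adjustment over all probe sets tested and a threshold of 0.05. Where a gene had several probe sets, the one of lowest p stood for it. Log2 changes are NF minus N. The fit was tested on simulated data with known changes. Pairs of genes were compared by exact permutation (scipy 1.17.1). Named are all members, the 4 genes with the lowest p of each of 5 lists, those most like Ddit3 and Atf4, and others singled out after their values were seen. The members and lists were chosen, from general knowledge, with earlier results of these data known. A few genes stand in more than 1 list. Old symbols were matched through Entrez IDs. Only 6 arrays limit the precision, and p-values measure the spread between them. Promoters came from RefSeq (GRCm38.p6). Alternatives were the replicate block, quantile normalization, median centring, the removal of dim probe sets (mean log2 value under 3.70), the probe set of highest mean, limma's trend and robust options, the equal-variance test, and leaving out each array.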

Additional observations from a re-analysis of the deposited data

How the results depend on the processing

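The direction held under every alternative for 7 of the 9 factors. The exceptions were Atf6b, which ran from -0.2362 without N replicate 1 to 0.0408 without N replicate 3, and Cebpb, at -0.0405 after quantile normalizing the arrays once more. Both values lie within the confidence intervals given above. Under the replicate block, removal of dim probe sets, highest-mean probe set, limma's options and equal-variance test, each log2 change is the same by construction. Those settings could not alter a direction.

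The replicate number as a block left 1 of the stress factors called (Atf3), 80 of all genes, 3 ATF4 and CHOP targets, 0 ATF6 and XBP1 targets, 0 sensors, 1 C/EBP target and 1 other bZIP factor. Same-numbered arrays showed no shared deviations (r = -0.0748, -0.0780 and -0.0736 over probe sets), so the numbers were not taken as pairs. Quantile normalization gave 4 stress factors, 860 genes, 22 ATF4 and CHOP targets, 5 sensors and 4 other bZIP factors, with 495 of the 860 genes higher against 307 of 428. The equal-variance test named in the study's statistics section called 1 gene after adjustment, and 0 stress factors, 0 ATF4 and CHOP targets, 0 ATF6 and XBP1 targets, 0 sensors, 0 C/EBP targets and 0 other bZIP factors. By this test, the genes lower at an unadjusted p under 0.05 were 4 of 9, 22 of 37, 6 of 34, 4 of 18, 2 of 18 and 3 of 35 in these lists. Of all 16797 genes, 861 were. Leaving out 1 array gave between 0 and 5 stress factors, 1 and 922 genes, 0 and 22 ATF4 and CHOP targets, 0 and 5 ATF6 and XBP1 targets, 0 and 5 sensors, 0 and 7 C/EBP targets and 0 and 5 other bZIP factors. Without N replicate 1 and NF replicate 2 together, chosen after the data were seen, the counts were 5, 1038, 28, 11, 5, 6 and 6 in the same order. Centring each array on its median, leaving out dim probe sets, the probe set with the highest mean and trend with robust estimation kept each of these counts within 1.5 times. The differences between paired genes kept their sign under quantile normalization and the loss of any 1 array. Median centring cannot change a difference taken within an array. The cause of these shifts was not tested.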
